A study of Mus musculus with 6 samples.

Results

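The Rab GTPases are the largest branch of the Ras superfamily. The genes described here are those whose mouse symbol is Rab followed by a number and at most 1 letter, with a mean of at least 10 normalized counts over 6 libraries. Of 58 genes with such a symbol among the 31245 in the table, 52 passed, beside 16653 genes of all kinds. The 6 below the minimum were Rab17, Rab19, Rab25, Rab37, Rab38 and Rab42. Rab38 lay just outside it at a mean of 9.20 normalized counts and Rab20 just inside at 10.2. A normalized count is the number of reads on a gene over a size factor that stands for the depth of its library.

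A Rab protein is a membrane switch. An exchange factor (GEF) loads it with GTP, in which state it recruits effectors such as tethers, motors and coats to its vesicle, and a GTPase-activating protein (GAP) returns it to the inactive GDP form. Different Rabs mark different membranes, so that the set a neuron makes covers its Golgi, its early, recycling and late endosomes, and the synaptic vesicles and dense core vesicles of its terminals. Rab3 proteins sit on synaptic vesicles and, with Rim and rabphilin, act in docking and priming for release.

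Messenger RNA came from primary cortical cultures of mouse pups at postnatal day 1, which were used after 12 to 13 days in vitro. In 3 cultures NGPF2 was present at 1.5 ng/ml for 2 h, and 3 received the PBS vehicle for as long. The labels do not spell out NGPF2, and give no genotype or strain. The series pairs 1 vehicle with 1 NGPF2 culture in each of 3 independent experiments, and the replicate number names the pair. Total counts ran from 17478070 (NGPF2 replicate 3) to 45193691 (NGPF2 replicate 1), and each p-value measures only the spread between these libraries.

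Replicate 1 stood apart from replicates 2 and 3, whose library names share a stem that replicate 1 lacks. The log2 difference between NGPF2 and vehicle had an SD over all genes of 0.43, 0.92 and 0.97 for pairs 1, 2 and 3. Markers are said to rise or fall below where they passed within replicates 2 and 3 (limma, adjusted p under 0.05). By the same test 9.77% of all genes rose and 11.3% fell. Of 13 astrocyte markers kept of 14 listed, the median difference was 0.02, -2.80 and -2.73 in pairs 1, 2 and 3, and all 13 fell in replicates 2 and 3 (Gjb6 was below the minimum). Their summed normalized counts were 29497, 85300 and 77611 in vehicle 1 to 3, and 33477, 21453 and 18294 in NGPF2 1 to 3. Of 11 microglia markers kept of 13 (P2ry12 and Tmem119 were below the minimum), 9 fell in those replicates, with sums of 1052 to 2051 in vehicle, 2160 in NGPF2 1 and 377 to 383 in NGPF2 2 and 3. Of 12 neuronal markers, 7 rose there, with sums of 256483 to 278381 in vehicle, 252858 in NGPF2 1 and 336088 to 346832 in NGPF2 2 and 3. Of other markers kept, 4 of 6 for oligodendrocyte precursors and 2 of 7 for oligodendrocytes fell there, and 3 of 9 for fibroblasts and mural cells fell while 1 rose. Of 3 endothelial markers kept of 6, 0 rose and 0 fell there, with sums of 40.6 to 124 over the libraries. Of 7 excitatory markers 3 rose and 2 fell there, with sums of 82861 and 85290 in vehicle 2 and 3 against 119709 and 110084 with NGPF2. Of 10 inhibitory markers 5 rose and 3 fell, with 49526 and 53429 against 65919 and 65095. These cultures were bulk samples, in which fewer cells of a type and less RNA per cell cannot be told apart. The part of these shifts in the Rab differences below was not tested, and each comparison is therefore given for the 3 pairs, within replicates 2 and 3, and between these and replicate 1.

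The 4 Rab3 paralogs differed in opposite directions within replicates 2 and 3, so the sequence before the start site of each is shown first. Each line gives the RefSeq reference sequence (GRCm38.p6, 5′ to 3′ on the gene's own strand) from 250 bases before the RefSeq start to the last base outside annotated exons. Capitals mark the GC box GGGCGG, which Sp1 family factors bind, or CCGCCC on the other strand, and the core TGACG or CGTCA of the cAMP response element. The stretches are chr8:70754453-70754678 for Rab3a (plus strand), chr4:108878820-108879062 for Rab3b (plus), chr13:110280207-110280456 for Rab3c (minus) and chr9:21918193-21918433 for Rab3d (minus). The Rab3c stretch lies within the annotated gene, since its RefSeq start is 790 bases downstream of the outermost GENCODE start.
Rab3a: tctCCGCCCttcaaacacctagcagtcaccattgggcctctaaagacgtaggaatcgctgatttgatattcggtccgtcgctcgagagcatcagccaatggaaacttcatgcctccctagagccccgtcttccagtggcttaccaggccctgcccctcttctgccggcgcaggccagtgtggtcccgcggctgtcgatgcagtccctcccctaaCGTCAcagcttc
Rab3b: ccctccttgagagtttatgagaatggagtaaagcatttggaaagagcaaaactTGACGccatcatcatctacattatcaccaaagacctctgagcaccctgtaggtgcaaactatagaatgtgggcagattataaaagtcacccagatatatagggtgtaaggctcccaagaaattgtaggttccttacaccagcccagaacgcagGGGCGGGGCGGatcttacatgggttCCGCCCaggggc
Rab3c: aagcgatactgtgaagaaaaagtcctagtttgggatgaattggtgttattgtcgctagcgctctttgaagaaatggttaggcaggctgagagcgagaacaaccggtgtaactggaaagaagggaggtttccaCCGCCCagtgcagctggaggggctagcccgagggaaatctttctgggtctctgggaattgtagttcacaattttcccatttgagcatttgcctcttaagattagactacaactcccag
Rab3d: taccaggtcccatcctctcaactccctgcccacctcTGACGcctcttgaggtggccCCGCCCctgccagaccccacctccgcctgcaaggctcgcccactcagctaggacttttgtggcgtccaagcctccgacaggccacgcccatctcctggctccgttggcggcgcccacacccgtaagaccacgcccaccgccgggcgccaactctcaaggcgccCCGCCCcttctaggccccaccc
Printed GC boxes numbered 1 in Rab3a, 3 in Rab3b, 1 in Rab3c and 2 in Rab3d, and in Rab3b a pair of them overlaps. The cAMP response core occurred once in the printed stretch of Rab3a, Rab3b and Rab3d, and its letters are not in that of Rab3c. Only the Rab3b stretch, among these 4, also holds TATAAA, left in lower case. Over the full 250 bases, GC content was 58.8% for Rab3a, 48.8% for Rab3b, 47.6% for Rab3c and 69.2% for Rab3d. Of the 52 Rab genes, 44 matched a RefSeq promoter. A GC box on either strand lay in the 250 bases of 32 of these 44 (72.7%), against 32.7% of all 32851 promoters. The cAMP response core lay in 21 of 44 (47.7%) against 17.8%, and TATAAA or TTTATA in 3 of 44 (6.82%) against 12.4%. The Rab promoters had a median GC content of 61.8% and 18 CpGs, and all promoters 52.4% and 6 CpGs. The 44 are 1 start per gene, each from a gene that passed the minimum count. The 32851 were neither filtered by expression nor limited to 1 start per gene. The 2 sets are thus not matched, and these shares do not show a trait of the Rab family. For Rab24, Rab2b, Rab33b and Rab6b all 250 bases lie in annotated exons. The genes themselves span, in mm10, chr8:70754679-70758677 for Rab3a (ENSMUSG00000031840), chr4:108879063-108943324 for Rab3b (ENSMUSG00000003411), chr13:110054187-110280996 for Rab3c (ENSMUSG00000021700) and chr9:21907491-21918192 for Rab3d (ENSMUSG00000019066). A match of letters is a description of the window and not evidence of binding.

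Levels of the family were compared as normalized counts per kb of exon, the length being that of all annotated exons, whichever isoforms were expressed. The order depends on this scaling: by mean normalized count alone, Rab3c (24002) was above Rab3a (16607). Rab6b, the neuron-enriched Golgi Rab, was the highest at 9283 ± 739 (SD over the 6 libraries), with 8856, 8814 and 9031 in vehicle 1 to 3 and 9070, 10768 and 9157 in NGPF2 1 to 3. Next came Rab3a, the main synaptic vesicle Rab, at 7460 ± 968. Its libraries read 7746, 6221 and 6329 in vehicle and 7747, 8563 and 8157 in NGPF2. Every Rab6b value was above every Rab3a value. Rab7, which drives maturation to late endosomes and lysosomes, had 4639 ± 428 per kb, with 3956, 5053 and 4288 in vehicle and 4713, 4923 and 4901 in NGPF2. Rab6a, the widely expressed Golgi paralog, had 3917 ± 465, with 3523, 4375 and 4600 in vehicle and 3617, 3868 and 3519 in NGPF2. Rab2a, which acts between endoplasmic reticulum and Golgi, had 3882 ± 477, with 3322, 4153 and 3996 in vehicle and 3265, 4135 and 4422 in NGPF2. The ranges of Rab7, Rab6a and Rab2a overlapped, so their order was not resolved. About 19% of the Rab6a exon length also lies in Mrpl48, and reads there may belong to either gene.

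Summed per kb, Rabs of the endoplasmic reticulum and Golgi made up 38.0%, 41.9% and 43.4% of the family in vehicle 1 to 3 and 37.6%, 42.8% and 41.7% in NGPF2 1 to 3. Those of synaptic vesicles and regulated secretion made up 24.0%, 15.7% and 16.2% in vehicle and 23.9%, 17.4% and 17.7% in NGPF2. This synaptic share was thus highest in replicate 1 of both groups, and in replicates 2 and 3 it was higher in both NGPF2 libraries than in either vehicle library. The latter order rests on scaling by exon length. Without it, the synaptic class summed to 36276 and 36246 normalized counts in vehicle 2 and 3, of 211163 and 208940 for the family. In NGPF2 2 and 3 the class summed to 33346 and 34746, of 214846 and 205593, so it was lower there. Early endosome Rabs took between 11.7% and 13.2% of the family in every library, recycling Rabs between 13.6% and 15.5%, and late endosome Rabs between 9.18% and 11.5%.

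**Figure D1:**
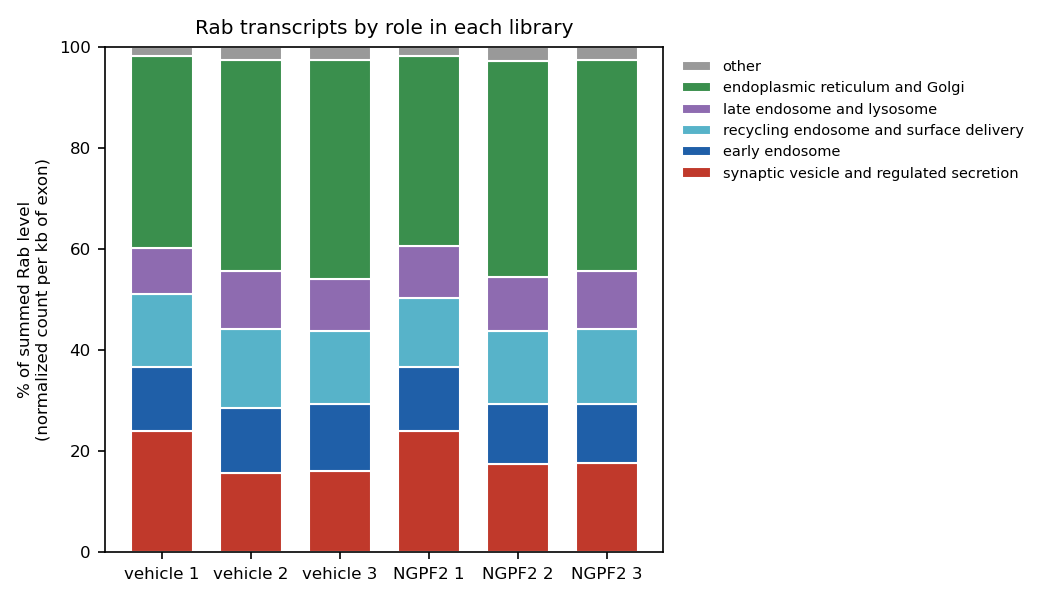
Share of the summed Rab level (normalized count per kb of exon, vertical axis in %) taken by each role class in each of the 6 libraries. The synaptic class, at the foot of each bar, takes 24.0% and 23.9% in replicate 1 and 15.7% to 17.7% in the other 4 libraries.

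NGPF2 and vehicle were first compared over all 3 pairs, to ask which transcripts differ after the exposure. No Rab gene passed (0 of 52, limma with the replicate number as a block, adjusted p under 0.05), against 0% of all genes. At an unadjusted p under 0.05 there were 9 of 52 (17.3%) beside 13.0% of all genes, and limma voom on the recovered counts called 0, with 6 at an unadjusted p under 0.05 (7.90% of all genes in that fit). The 9 were Rab11b, Rab7b, Rab3b, Rab13, Rab31, Rab27b, Rab33a, Rab26 and Rab3d, with an adjusted p of 0.379 at the lowest. Without replicate 1 the same model called 14 of 52 Rabs, beside 3275 of 16653 genes in all, and without replicate 2 or replicate 3 it called 0. Vehicle and NGPF2 libraries did not overlap, 3 against 3, for 8 of 52 Rabs, beside 10% of all genes.

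The pairs differed in how far the Rabs spread. The SD of the log2 difference over the 52 genes was 0.20, 0.57 and 0.49 for pairs 1, 2 and 3. In pair 1, 3 Rabs lay beyond 0.5 either way, beside 9.63% of all genes, and these were Rab11b, Rab7b and Rab27a. By role, the synaptic Rabs had a median of 0.00, -0.71 and -0.66 in pairs 1, 2 and 3. The 27 endosomal Rabs had medians of -0.08, -0.13 and 0.00, and the 14 Rabs of the endoplasmic reticulum and Golgi -0.04, 0.01 and -0.03. Within the endosomal group, the early class had -0.08, -0.13 and -0.03, the recycling class -0.08, 0.08 and 0.05, and the late class -0.04, -0.30 and 0.24. All genes together had medians of 0.00, -0.01 and 0.00. A median hides opposite signs within a class: the size of the mean difference of pairs 2 and 3, whatever its sign, had a median of 0.68 over synaptic Rabs, 0.21 over endosomal Rabs and 0.15 over those of the endoplasmic reticulum and Golgi. The synaptic median of 0.68, like that of -0.66 in pair 3, is the value of Rab27a, a gene near the floor. Of the other synaptic Rabs, Rab3a had the smallest mean difference of pairs 2 and 3 (0.41) and Rab27b the largest (-1.23).

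**Figure D2:**
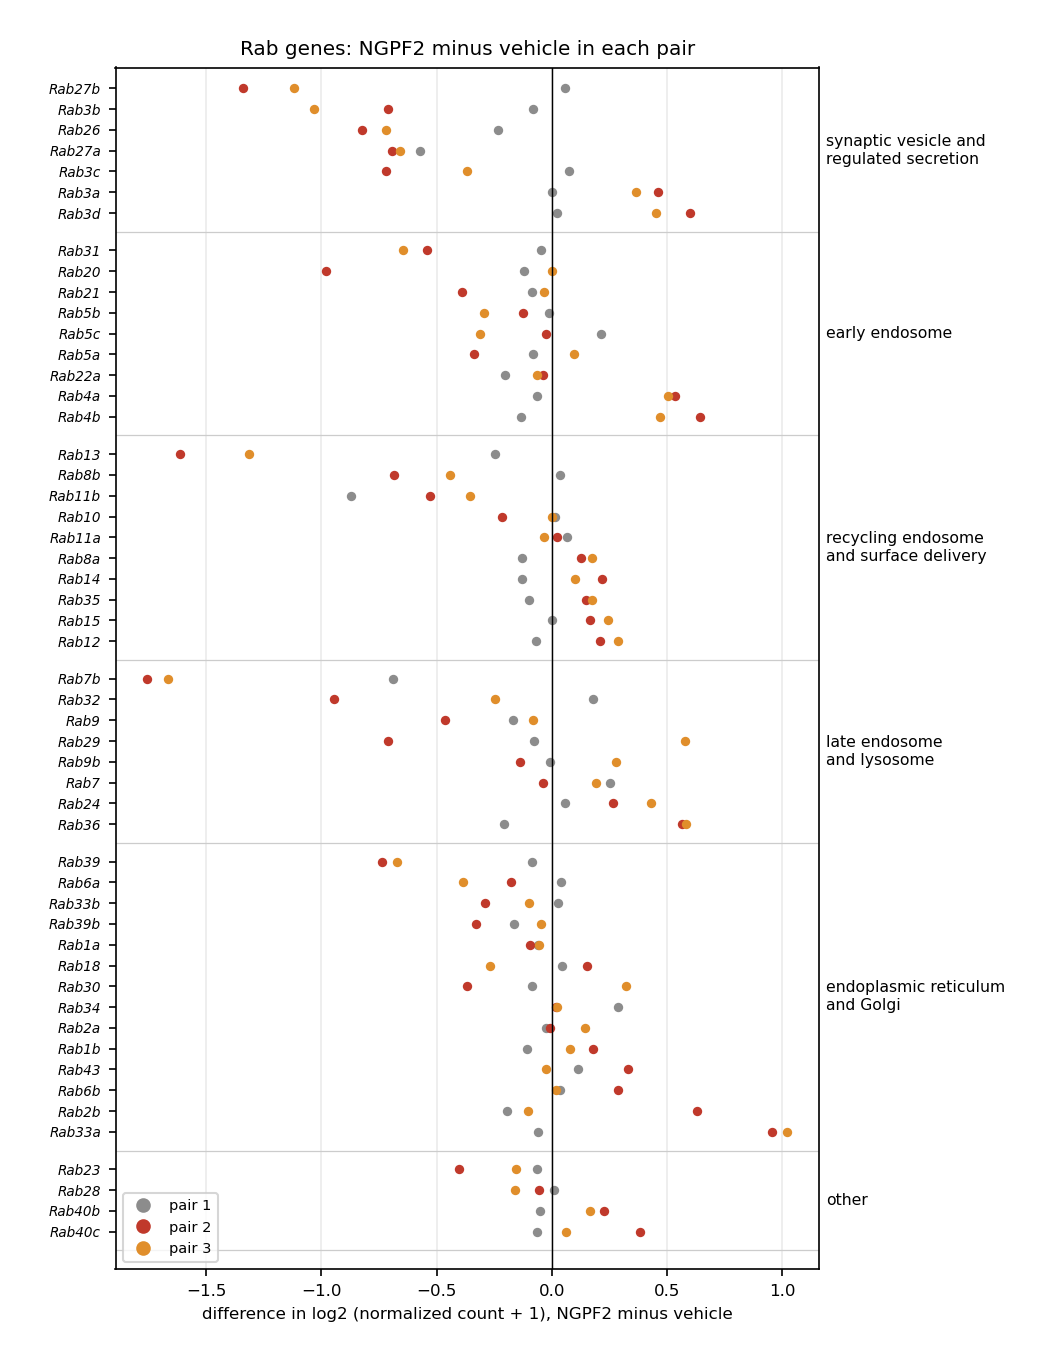
Difference in log2 (normalized count + 1), NGPF2 minus vehicle, for the 52 Rab genes in pair 1 (grey), pair 2 (red) and pair 3 (orange), grouped by role. Grey points lie near 0 except for Rab11b, Rab7b and Rab27a, and synaptic Rabs spread to both sides in pairs 2 and 3.

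Within replicates 2 and 3, NGPF2 was compared with vehicle with 2 libraries per group. Here 15 of 52 Rabs passed (28.8%), beside 21.1% of all genes, with 6 higher (all genes 9.77%) and 9 lower (all genes 11.3%). The direction over all genes depended on the scaling: 1627 rose and 1884 fell, but 982 and 2659 when libraries were scaled to their totals, while the Rabs then gave 5 higher and 11 lower. By role, 6 of 7 synaptic Rabs passed, 8 of 27 endosomal (3 of 9 early, 3 of 10 recycling and 2 of 8 late) and 1 of 14 of the endoplasmic reticulum and Golgi. These counts rest on both vehicle libraries: without vehicle 2, or without vehicle 3, limma called 0 Rabs and 0 genes in all. At an unadjusted p under 0.05 there were then 14 of 52 Rabs each time, beside 21.7% and 21.8% of all genes. Without NGPF2 2, Rab8b, Rab7b, Rab4a, Rab36, Rab26 and Rab11b lost the call, and without NGPF2 3, Rab26 and Rab11b did. Without the mean-variance trend, 4 of the 15 remained.

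Rab3a had 17242, 13847 and 14088 normalized counts in vehicle 1 to 3 and 17246, 19060 and 18157 in NGPF2 1 to 3. Both NGPF2 libraries of replicates 2 and 3 lay above all vehicle libraries, and replicate 1 was level. Rab3a rose 1.33-fold within replicates 2 and 3 (log2 difference 0.41, SE 0.06, adjusted p = 0.0133). Rab3d, best known from secretory granules of exocrine cells, had 1406, 1002 and 1014 in vehicle and 1429, 1521 and 1387 in NGPF2. It rose 1.44-fold there (0.53, SE 0.09, adjusted p = 0.0166), with the NGPF2 libraries near the level that replicate 1 had in both groups.

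The other Rab3 paralogs went down in the same cultures. Rab3b had 7461, 2312 and 2734 normalized counts in vehicle and 7061, 1413 and 1337 in NGPF2. Its libraries of replicate 1 were the highest in both groups, and within replicates 2 and 3 it fell 1.83-fold (-0.87, SE 0.11, adjusted p = 0.00792). Rab3c had 41489, 17766 and 17070 in vehicle and 43679, 10785 and 13224 in NGPF2, again with replicate 1 far above the rest. Within replicates 2 and 3 Rab3c fell 1.46-fold (-0.54, SE 0.11, adjusted p = 0.0283). Per kb of exon, Rab3a was therefore 56.8%, 72.4% and 72.2% of all Rab3 transcript in vehicle 1 to 3, and 56.5%, 83.8% and 81.9% in NGPF2 1 to 3. Over the same libraries Rab3c was 25.2%, 17.2% and 16.2%, then 26.4%, 8.76% and 11.0%. These shares rest on dividing by the full annotated exon length, 2226 bases for Rab3a and 12049 for Rab3c. In undivided normalized counts Rab3c was above Rab3a in all vehicle libraries and NGPF2 1, and below it in NGPF2 2 and 3.

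**Figure D3:**
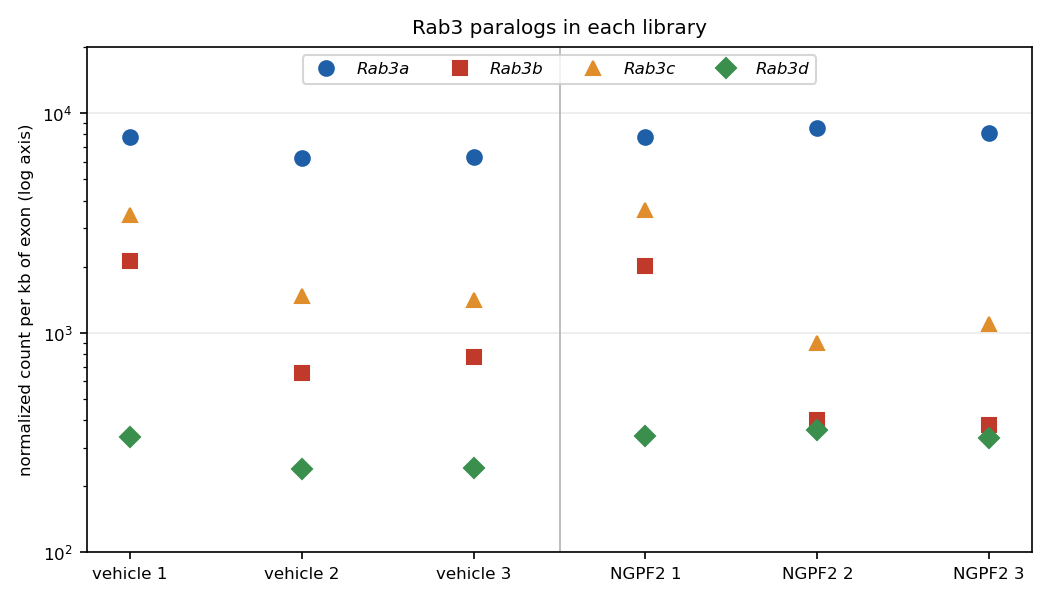
Normalized count per kb of exon (log axis) of Rab3a, Rab3b, Rab3c and Rab3d in each library, 1 point per library. In replicates 2 and 3 Rab3a and Rab3d are higher with NGPF2 and Rab3b and Rab3c lower, and the replicate 1 libraries of both groups coincide.

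The remaining synaptic Rabs were lower with NGPF2 in replicates 2 and 3. Rab27b (ENSMUSG00000024511), which docks secretory and synaptic vesicles, had 741, 1148 and 1170 normalized counts in vehicle and 771, 453 and 538 in NGPF2. The vehicle and NGPF2 libraries of replicates 2 and 3 lay on opposite sides of replicate 1, and Rab27b fell 2.34-fold (-1.23, SE 0.12, adjusted p = 0.0045). Rab26, which links synaptic vesicles to autophagy, had 76.1, 185 and 157 in vehicle and 64.6, 104 and 95.1 in NGPF2. It fell 1.71-fold (-0.77, SE 0.18, adjusted p = 0.0425) but did not pass with the replicate number as a block (limma, adjusted p = 0.0522), and 9% of its exon length is shared with the more abundant Traf7. Rab27a, needed for melanosome and lytic granule transport, was near the floor at 27.1, 16.1 and 11.9 in vehicle and 17.9, 9.56 and 7.18 in NGPF2. Lower in NGPF2 in each pair, it did not pass (-0.68, SE 0.46, adjusted p = 0.345).

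Among early endosome Rabs, the fast recycling pair Rab4a and Rab4b rose and Rab31 fell, while Rab5a, Rab5b, Rab5c, Rab20, Rab21 and Rab22a did not pass. Rab4a had 1200, 820 and 767 normalized counts in vehicle and 1146, 1188 and 1088 in NGPF2, so that NGPF2 2 and 3 were close to replicate 1. Its rise within replicates 2 and 3 was 1.43-fold (0.52, SE 0.09, adjusted p = 0.0223). Rab4b had 1190, 1308 and 1432 in vehicle and 1086, 2046 and 1983 in NGPF2, the 2 last libraries being the highest, and rose 1.47-fold (0.56, SE 0.08, adjusted p = 0.0127). In the annotation 65% of Rab4b exon length is shared with Gm21983, which had few counts. Rab31 (ENSMUSG00000056515, chr17:65651729-65772752), which moves cargo between Golgi and endosomes, had 3898, 5347 and 5352 in vehicle and 3779, 3677 and 3424 in NGPF2. All NGPF2 libraries were below all vehicle libraries, pair 1 by little, and Rab31 fell 1.51-fold within replicates 2 and 3 (-0.59, SE 0.07, adjusted p = 0.00739). The 3 Rab5 paralogs, regulators of early endosome fusion, had differences there of -0.12 (Rab5a), -0.21 (Rab5b) and -0.17 (Rab5c).

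Of the recycling and surface delivery Rabs, Rab13, Rab8b and Rab11b fell within replicates 2 and 3, and none rose. Rab13 (ENSMUSG00000027935, chr3:90213695-90226385), which carries cargo to cell junctions and growing neurites, had 76.1, 108 and 109 normalized counts in vehicle and 64.0, 34.7 and 43.1 in NGPF2. All NGPF2 libraries were lower than all vehicle libraries, and Rab13 fell 2.76-fold (-1.46, SE 0.24, adjusted p = 0.016). Rab8b, a Rab of vesicles bound for the plasma membrane, had 911, 929 and 824 in vehicle and 935, 577 and 607 in NGPF2, and fell 1.48-fold (-0.56, SE 0.11, adjusted p = 0.0236). Its paralog Rab8a, with 1426, 1275 and 1258 in vehicle and 1304, 1393 and 1421 in NGPF2, did not pass (0.15, SE 0.07, adjusted p = 0.211). Whether the paralogs differ in response was not tested.

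Rab11b (ENSMUSG00000077450, chr17:33742484-33760530), a Rab of the recycling endosome, was 1 of the 3 members beyond 0.5 in pair 1. Its normalized counts were 4360, 3313 and 2861 in vehicle and 2387, 2294 and 2240 in NGPF2. Every NGPF2 library was below every vehicle library, and the NGPF2 libraries were close to each other while the vehicle libraries were not. The log2 difference was -0.87, -0.53 and -0.35 in pairs 1, 2 and 3. Over the 3 pairs Rab11b differed by -0.58 (SE 0.13) without passing (adjusted p = 0.379), and within replicates 2 and 3 it fell 1.36-fold (-0.44, SE 0.09, adjusted p = 0.0317). Rab11a, the more studied paralog, had 4168, 4506 and 4531 in vehicle and 4363, 4578 and 4420 in NGPF2, with a difference of -0.01 (SE 0.06, adjusted p = 0.953) within replicates 2 and 3.

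Of the late endosome Rabs, Rab7b fell and Rab36 rose within replicates 2 and 3. Rab7b (ENSMUSG00000052688, chr1:131688695-131715439), which acts in transport from endosomes to the Golgi, had 69.6, 91.1 and 122 normalized counts in vehicle and 42.9, 26.3 and 37.7 in NGPF2. All NGPF2 libraries were below all vehicle libraries, and Rab7b fell 3.27-fold within replicates 2 and 3 (-1.71, SE 0.30, adjusted p = 0.0206). Rab36, which binds RILP family effectors on late endosomes, had 684, 905 and 762 in vehicle and 593, 1338 and 1141 in NGPF2. The rise was 1.49-fold (0.57, SE 0.13, adjusted p = 0.0392), against a lower value with NGPF2 in pair 1. The abundant Rab7 did not pass (0.08, SE 0.09, adjusted p = 0.596), nor did Rab9, Rab9b, Rab24, Rab29 and Rab32. Rab24 shares 62% of its exon length with the abundant Prelid1 on the other strand, so its reads cannot be assigned with certainty.

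Of the endoplasmic reticulum and Golgi Rabs, Rab33a alone passed, although 13 others were tested. Rab33a (ENSMUSG00000031104, chrX:48519285-48530232), a Golgi Rab that also marks vesicles of growing axons, had 511, 385 and 406 normalized counts in vehicle and 491, 747 and 824 in NGPF2. NGPF2 2 and 3 were the highest libraries and vehicle 2 and 3 the lowest, with a rise of 1.98-fold (0.99, SE 0.11, adjusted p = 0.0062). Its paralog Rab33b, an autophagy and Golgi Rab, had 802, 665 and 685 in vehicle and 817, 544 and 639 in NGPF2 and did not pass (-0.19, SE 0.12, adjusted p = 0.29). The widely expressed members of this class had differences within replicates 2 and 3 of -0.08 for Rab1a, 0.13 for Rab1b, 0.07 for Rab2a, -0.28 for Rab6a and 0.15 for Rab6b, none of which passed. Of the 37 Rabs that did not pass in the whole family, differences ran from -0.70 to 0.35.

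**Figure D4:**
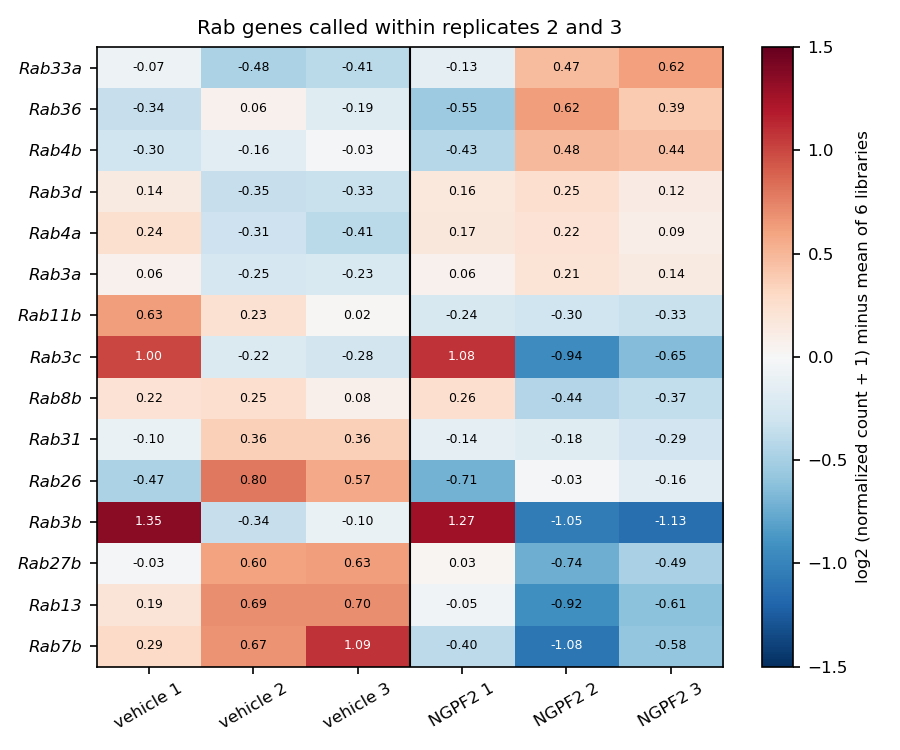
The 15 Rab genes that passed within replicates 2 and 3, as log2 (normalized count + 1) minus the mean of the 6 libraries (colour and printed values), with vehicle libraries left of the line and NGPF2 libraries right of it. The widest gaps between vehicle 1 and NGPF2 1 are those of Rab11b (-0.87) and Rab7b (-0.69), and each of the 9 genes that fell is lower in NGPF2 2 and 3 than in vehicle 2 and 3.

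Whether the effect in replicates 2 and 3 differed from that in replicate 1 was tested with an interaction term, in which replicate 1 gives 1 library per group. No Rab passed in limma (0 of 52), beside 2.49% of all genes (0.721% higher and 1.77% lower). At an unadjusted p under 0.05 there were 13 of 52 (25.0%), beside 20.3% of all genes. With limma voom on recovered counts 5 of 52 passed, beside 1368 of 16653 genes, namely Rab27b, Rab31, Rab33a, Rab3b and Rab4b. Rab27b was closest in the limma test, with a difference between the effects of -1.29 (SE 0.20, adjusted p = 0.0512), followed by Rab33a at 1.05 (SE 0.19, adjusted p = 0.0636).

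Vehicle 2 and 3 were then compared with vehicle 1. Replicate 1 has 1 vehicle library and so adds no spread of its own: the SE and p come from the spread between replicates 2 and 3 of both groups, and assume that vehicle 1 varies alike. This comparison shares vehicle 2 and 3 with the one of NGPF2, so the values of both stand side by side and their likeness is not a result. Of 52 Rabs 14 passed (26.9%), beside 19.9% of all genes, with 7 higher in replicates 2 and 3 (all genes 10.5%) and 7 lower (all genes 9.42%). Without vehicle 2, or without vehicle 3, limma called 0 Rabs, with 17 and 13 of 52 at an unadjusted p under 0.05, beside 22.8% and 23.1% of all genes. Rab11b lost the call when either NGPF2 library of these replicates was left out. Only 3 of the 14 remained without the mean-variance trend. Culture, sequencing run and date of replicate 1 cannot be told apart.

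All 4 Rab3 genes were lower in vehicle 2 and 3 than in vehicle 1. Rab3b was 2.97-fold lower (-1.57, SE 0.13, adjusted p = 0.00343) and Rab3c 2.38-fold lower (-1.25, SE 0.13, adjusted p = 0.00647). Rab3d and Rab3a were 1.39-fold and 1.23-fold lower (adjusted p = 0.0357 and 0.0496). In the same vehicle libraries the summed counts of 10 inhibitory neuron markers were 119615, 49526 and 53429, and those of 7 excitatory markers 29011, 82861 and 85290. By the same limma test 8 inhibitory markers were lower in replicates 2 and 3 and 1 was higher. Of the excitatory markers 2 were higher and 1 lower. Their median difference from vehicle 1 was -0.12 in vehicle 2 and -0.21 in vehicle 3, against the direction of their sum. Of 13 astrocyte markers 10 were higher and 0 lower, and of 9 fibroblast and mural markers 6 were lower and 0 higher. The part of these shifts in the Rab3 levels was not tested. The other lower genes were Rab4a (-0.60), Rab11b (-0.50) and the Golgi Rab Rab30 (-0.91). Among higher genes, Rab26 was 2.23-fold higher (1.15, SE 0.24, adjusted p = 0.0311), Rab27b 1.56-fold (0.64, SE 0.14, adjusted p = 0.0366) and Rab31 1.37-fold (0.46, SE 0.08, adjusted p = 0.0234). The other higher genes were Rab28 (0.72), a Rab of cilia, Rab40b (0.68), which joins a ubiquitin ligase, Rab18 (0.61), found on endoplasmic reticulum and lipid droplets, and Rab15 (0.45), of endosomal recycling.

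**Figure D5:**
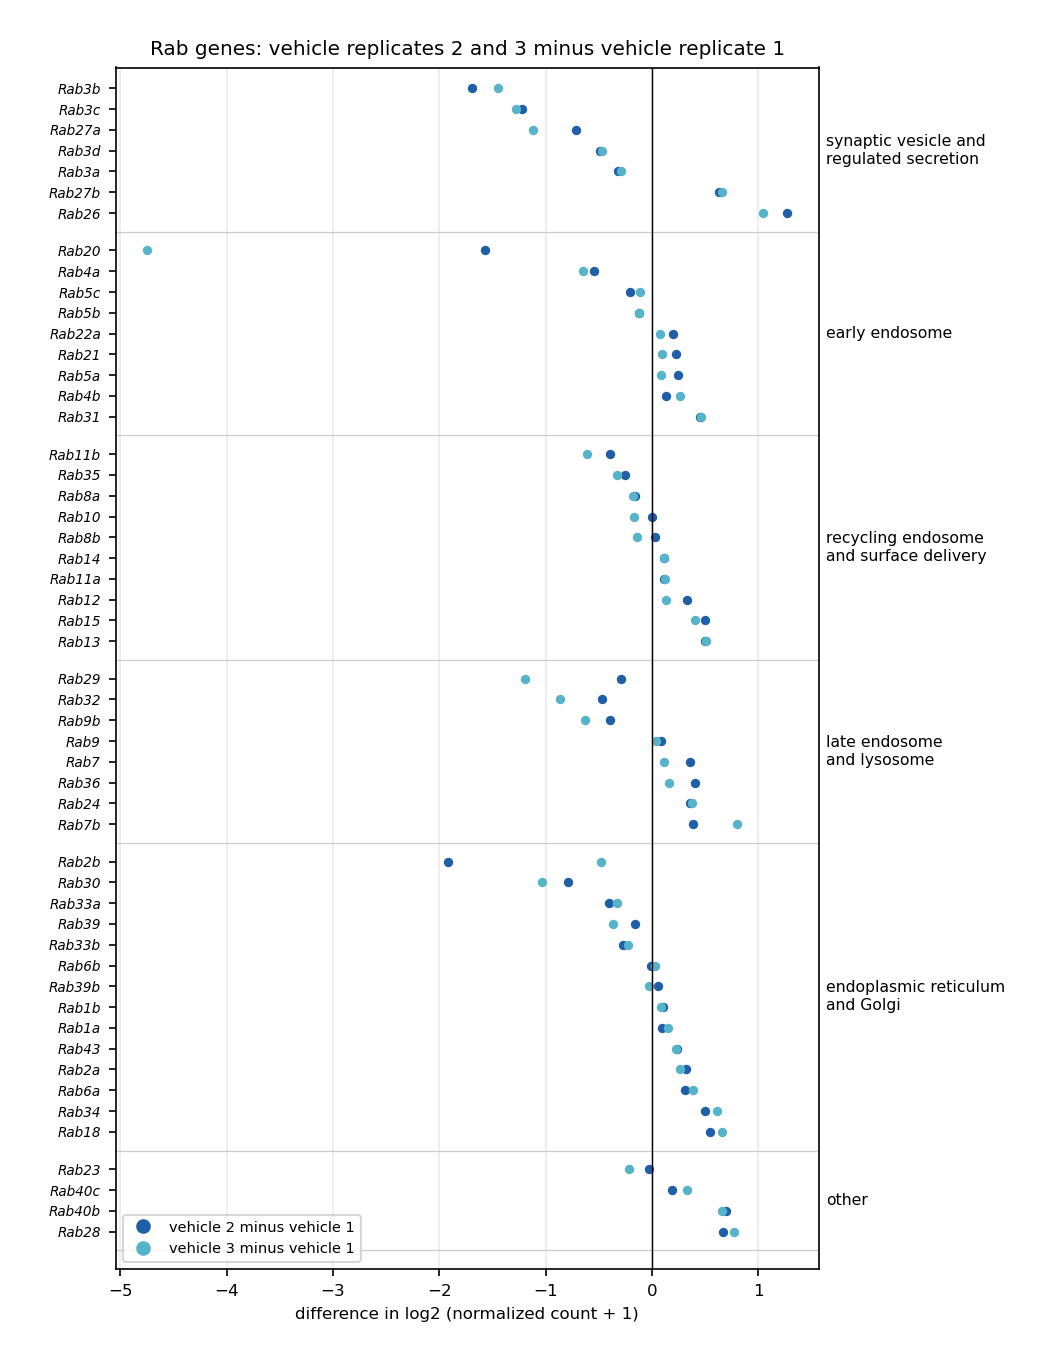
Difference in log2 (normalized count + 1) of vehicle 2 (dark blue) and vehicle 3 (light blue) from vehicle 1 for the 52 Rab genes, grouped by role. Rab3b and Rab3c lie below -1.2 in both libraries, Rab26 lies above 1, and the lone point near -4.7 is Rab20, at 0 counts in vehicle 3.

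The proteins that switch and read Rabs were described from lists of exchange factors, GAPs, cycle proteins and effectors. Of 128 such genes 123 were kept, and 0 passed over the 3 pairs (limma, 13 at an unadjusted p under 0.05). Within replicates 2 and 3, 11 rose and 12 fell, beside 9.77% and 11.3% of all genes, and as for all genes none remained without vehicle 2 or without vehicle 3 (limma, 0 called). Exchange factors had 1 higher and 3 lower of 29, GAPs 2 and 2 of 34, cycle proteins 2 and 2 of 10, synaptic effectors 1 and 1 of 10, endosomal effectors 4 and 4 of 29, and Golgi effectors 1 and 0 of 11.

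Madd, an exchange factor for Rab3 and Rab27, had 7017, 6480 and 7484 normalized counts in vehicle and 7858, 9064 and 9193 in NGPF2, all NGPF2 libraries being above all vehicle libraries. It rose 1.31-fold within replicates 2 and 3 (0.39, SE 0.09, adjusted p = 0.0368). Rin2, an exchange factor for Rab5, had 201, 235 and 223 in vehicle and 155, 55.0 and 57.4 in NGPF2, and fell 4.02-fold (-2.01, SE 0.18, adjusted p = 0.00382). The DENN exchange factors Dennd2a (-0.74) and Dennd4c (-0.58) also fell. Of the GAPs, Tbc1d30 (0.83) and Tbc1d24 (0.53), the latter linked to synaptic vesicle recycling, rose, while Evi5 (-0.79), which binds Rab11, and Rabgap1l (-0.67) fell.

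Ppm1h, the phosphatase that removes the phosphate LRRK2 places on Rabs, had 4313, 3832 and 4080 normalized counts in vehicle and 5584, 4996 and 6099 in NGPF2. Every NGPF2 library was above every vehicle library, and Ppm1h rose 1.40-fold within replicates 2 and 3 (0.48, SE 0.11, adjusted p = 0.0404). The kinase Lrrk2 had 409, 317 and 280 in vehicle and 435, 160 and 113 in NGPF2, and fell 2.21-fold there (-1.14, SE 0.22, adjusted p = 0.0242). Its paralog Lrrk1, which phosphorylates Rab7, fell as well (-1.89, SE 0.48, adjusted p = 0.0498).

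Rims1, the active zone scaffold that binds Rab3, had 5007, 6336 and 6670 normalized counts in vehicle and 7146, 9546 and 9430 in NGPF2. It was higher with NGPF2 in each pair, by 0.51 in pair 1, and rose 1.46-fold within replicates 2 and 3 (0.55, SE 0.06, adjusted p = 0.0073). Rph3a, rabphilin, the Rab3 and Rab27 effector on synaptic vesicles, had 8478, 25545 and 28618 in vehicle and 8426, 21068 and 20638 in NGPF2. It fell 1.30-fold within replicates 2 and 3 (adjusted p = 0.0309), and its replicate 1 libraries were the lowest in both groups. Among endosomal effectors, the Rab11 partners Rab11fip4 (0.52) and Myo5b (0.98), the latter a motor, and Rilpl2 (0.53) rose. Myo5b had 4568, 1468 and 1285 normalized counts in vehicle and 4677, 2978 and 2450 in NGPF2, its replicate 1 libraries being the highest. Fyco1 (-1.25), which ties Rab7 vesicles to kinesin, Appl2 (-1.40) and Eea1 (-0.49), both Rab5 effectors, fell. Erc1, a Rab6 effector and active zone protein, rose (0.62) within replicates 2 and 3 but was lower with NGPF2 in pair 1.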

How the data were processed

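Per the labels' protocols, poly(A) RNA was selected, then fragmented and amplified. The submitters' processing notes name the mm10 build and, among tools, DESeq 1.22.1, Cuffnorm, FastQC and STAR 2.5. Not given in the sources used here were annotation, counter and strand. The deposited log2 values are those of normalized counts with a pseudocount of 1, although the table is named as FPKM: 100% gave whole counts (tolerance 0.01 of a count) when divided by 1 step per library. Columns of replicates 2 and 3 carry the library names of the titles, and replicate 1 was assigned by elimination and initial. The columns so assigned are named C3 and T3, and their digit differs from the replicate number.

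Tests on the deposited log2 values used limma 3.58.1 (R 4.3.3, moderated by empirical Bayes along the mean-variance trend, 2-sided p, Benjamini-Hochberg over 16653 genes with a mean of at least 10, threshold 0.05), tested on simulated data with independent noise. The simulation gave replicate 1 no general offset and the same spread as the other libraries, so it does not check whether replicate 1 varies alike. The replicate number was a block over the 3 pairs, which the series states, and no block was used within replicates 2 and 3. Deviations from group means correlated at r = 0.59, 0.30 and 0.33 between same-numbered libraries across genes, and at 0.34 and 0.32 with replicates 2 and 3 crossed. Crosses with replicate 1 gave -0.42 to -0.45. The group means include replicate 1, which stood apart, so these values cannot decide whether replicates 2 and 3 are paired. Alternatives were the pseudocount, filter, scaling, variance prior, voom, block and each library left out. Symbols, coordinates and exon overlap came from GENCODE M21, and promoters from RefSeq. Values in each library are given for synaptic Rabs, Rabs that passed and the 5 highest per kb, and up to 3 genes per direction of each regulator list by smallest p, of which 1 is not reported here. Rab5, Rab8a, Rab11a, Rab33b and the other Rabs given by a single value were added after their values were seen. The members, role classes and lists were chosen with earlier results of these data known. Plots used matplotlib 3.10.9 in Python 3.11.15.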

Additional observations from a re-analysis of the deposited data

How the results depend on the processing

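No Rab difference that passed reversed its sign under any alternative run, and scaling to library totals moved the median of all genes by -0.13 within replicates 2 and 3. Over the 3 pairs, leaving out 1 pair gave 0 to 6 Rabs higher and 0 to 8 lower, against 0 and 0 with all pairs. Within replicates 2 and 3 (6 higher, 9 lower), testing all genes of the table gave 1 and 0, dropping the variance trend 1 and 3, and leaving out 1 library 0 to 7 and 0 to 7. In the test of the difference between effects (0 and 0), all genes of the table gave 2 higher, a mean of at least 50 gave 1 and 1, quantile normalization 1 and 2, voom 2 and 3, library totals 2 lower, a pseudocount of 5 gave 1 lower, and leaving out 1 library 0 to 2 lower. For vehicle replicates 2 and 3 against vehicle replicate 1 (7 and 7), all genes of the table gave 2 higher and 1 lower, no trend 1 and 2, and leaving out 1 library 0 to 9 and 0 to 6. The causes were not tested.

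With the replicate block, the fit within replicates 2 and 3 gave 6 higher and 8 lower, Rab26 losing its call, and the test of the difference between effects gave 0 higher and 1 lower. Without the block, the comparison over the 3 pairs gave 0 and 0. A group with 1 library left was assumed to vary like the other. Rabs with few counts, such as Rab20 and Rab27a, are limited by depth.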
